A study of Mus musculus with 36 samples.

Results

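The liver transcriptome was followed across 3 diets that differ in how much of their energy is fat: 12% in the control diet, 75% in a high-fat diet that is not ketogenic, and 90% in a ketogenic diet. All 18 liver libraries of the series were used, out of 36 libraries from 2 tissues: 5 from control-fed, 6 from high-fat-fed and 7 from ketogenic-fed mice. The mice were C57BL/6 males from the colony of the National Institute on Aging, 12 months old, with no transgene or deletion named. All had been habituated to the AIN-93M control diet. They then stayed on it or moved for 1 week to the high-fat or the ketogenic diet, and livers were taken between midnight and 3 in the morning, when mice feed. Each diet had 10% of its energy as protein. By the sample labels carbohydrate was 78% and 10% of energy in the control and high-fat diets. For the ketogenic diet 0% was used, the remainder after 90% fat and 10% protein. The fat, carbohydrate and protein given for the high-fat diet do not add up to all of its energy. The design text gives 10% carbohydrate for all diets. If the values used here hold, fat and carbohydrate move together. An mRNA that follows 1 of them then cannot be told apart from an mRNA that follows the other. The question was which genes grade with dietary fat and which switch on the ketogenic diet only.

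A fed liver turns carbohydrate into fat: pyruvate kinase carries glucose carbon through glycolysis, and acetyl-CoA carboxylase, fatty acid synthase, Elovl6 and Scd1 build and desaturate fatty acids under the insulin-responsive factors SREBP-1c and ChREBP. A liver supplied with fat uses the fatty acid receptor PPAR alpha to raise carnitine shuttling, mitochondrial, peroxisomal and omega oxidation, and lipid droplet proteins. When carbohydrate is very scarce and insulin is low, acetyl-CoA from that oxidation leaves the liver as ketone bodies.

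A pair of simple shapes was compared for every gene, each with 1 slope besides its starting level. The line lets log2 expression change in proportion to the percentage of energy as fat. The step lets the ketogenic livers differ and holds high-fat livers at the control level. Because 75% is close to 90%, the line through the control and ketogenic means puts the high-fat mean 80.8% of the way between them, so a line is hard to tell from a plateau shared by both fat diets. A gene was called nearer the line or nearer the step by the smaller residual sum of squares of log2 CPM, where CPM is counts scaled to 1 M per library with TMM factors. That assignment has no p-value. Tests were edgeR quasi-likelihood tests on the counts of 13374 genes, of 33495 in the table, and adjusted p-values are by Benjamini-Hochberg over those 13374. Trend values are the fitted log2 change between 12% and 90% fat, and step values are the log2 difference of ketogenic livers from all others. The ± after a log2 value is an approximate SE, the size of the value divided by the square root of its test's F statistic.

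Libraries held 18.9 to 35.9 M counts, of which 7.17 to 14.6 M were not mitochondrial. The mitochondrial share was 59.6% ± 6.77, 60.5% ± 3.65 and 64.2% ± 5.32 of counts on control, high-fat and ketogenic (SD, n = 5, 6 and 7). The samples are labelled as liver, and Alb, the albumin gene and a hepatocyte marker, averaged 28229 ± 3003 CPM on control, 29720.0 ± 3499 on high-fat and 28929 ± 4072 on ketogenic (SD). Nothing in the labels says that the libraries come from separate mice, so p-values measure the spread between these libraries. Control 0 stood apart, with a median correlation of 0.887 to the other control libraries where every other library had at least 0.945 to those of its own diet. Control 0, high-fat 2 and high-fat 3 shared high interferon scores (1.79, 1.90 and 1.33) and high cell cycle scores (1.92, 1.83 and 1.58), where a score is the mean log2 deviation of a list's genes from their mean over the 18 libraries. A few other libraries went against their diet in lipid genes. High-fat 5 had a lipogenesis score of 1.13 when the other high-fat livers had -0.63 to 0.02, and ketogenic 6 had 0.53 when the other ketogenic livers had -0.78 to -0.42. Where leaving out 1 library or the 3 of high interferon score moved the trend or step of a gene given here by over 1.5 times, a value without them is beside it or in the part on processing.

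No gene passed an adjusted p of 0.05 in any of the tests (percent called 0). For the trend, 1368 genes (10.2%) had an unadjusted p under 0.05, 589 higher with more fat (4.4%) and 779 lower (5.82%), and the smallest adjusted p was 0.149. For the step there were 779 genes (5.82%), 421 higher on ketogenic (3.15%) and 358 lower (2.68%), with a smallest adjusted p of 0.287. The split by direction depended on scaling: without TMM factors 24.3% of the trend genes and 8.35% of the step genes were higher, against 43.1% and 54% with them, and limma-trend gave 61.6% higher for the trend. DESeq2 called 28 genes for the trend, 9 higher and 19 lower, 7 for the step, 4 higher and 3 lower, 29 for any diet difference, 1 for high-fat against control and 0 for high-fat against the line. The edgeR trend calls depended on single libraries. Without control 4 there were 48 calls, without high-fat 5 there were 23, and without ketogenic 6 there were 3. Over all the alternatives 65 genes were called for the trend at least once and 17 in 3 or more, with Ppp1r3b called in 5.

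By shape, 59.1% of all tested genes lay nearer the line. Among the 909 genes (6.8%) with an unadjusted p under 0.05 for any diet difference, 642 or 70.6% did. The share was 76.4% of the 491 genes that were lower in ketogenic than in control livers and 63.9% of the 418 that were higher. The position of the high-fat mean was taken as a percentage of the way between the control and ketogenic means. Its median was 83.1% for the lower and 60.4% for the higher genes. That median was 71.7% over the 909 genes and 75.3% over all tested genes. A high median position alone therefore does not show that genes grade with fat. These shares are descriptions: genes are not independent, and the 70.6% ran between 57.0% without high-fat 4 and 80.7% without control 4. Among all tested genes the share was 56.7% and 62.3% in those fits, so without high-fat 4 the 2 shares were nearly equal. Without control 0, high-fat 2 and high-fat 3 they were 53.6% and, among all tested genes, 49.9%. By unadjusted p, 529 of the 13374 tested genes fitted a graded pattern, with a trend, a difference of high-fat from control, and no departure from the line. A ketogenic-only pattern, with a step, a departure from the line, and no difference of high-fat from control, was fitted by 173. Another 1057 genes with a trend or step p under 0.05 fell in neither class. Both classes rest in part on a p not under 0.05, which does not show that a difference is absent. A plateau shared by both fat diets can meet the graded rule too, so the 529 are not all shown to grade. At an unadjusted p under 0.05, 392 genes (2.93%) departed from the line on high-fat, a smaller share than chance gives at that threshold. High-fat lay above the line in 200 (1.5%) and below it in 192 (1.44%). It differed from control in 950 (7.1%), 344 higher (2.57%) and 606 lower (4.53%), and the smallest adjusted p was 1.00 and 0.217.

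The promoters of 4 genes are shown because these genes, with the smallest p-values of their shape and direction among genes with a single RefSeq promoter, carry the contrast between a line and a step. Each is the 250 bases before the transcript start in GRCm38.p6, written along the gene's own strand, and capitals mark matches to the motifs named below.
Mid1ip1: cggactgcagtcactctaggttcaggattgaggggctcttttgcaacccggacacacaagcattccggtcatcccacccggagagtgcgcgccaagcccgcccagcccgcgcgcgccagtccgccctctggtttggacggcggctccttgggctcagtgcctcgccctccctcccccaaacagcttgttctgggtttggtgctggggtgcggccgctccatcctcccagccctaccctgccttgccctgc
Cpt1a: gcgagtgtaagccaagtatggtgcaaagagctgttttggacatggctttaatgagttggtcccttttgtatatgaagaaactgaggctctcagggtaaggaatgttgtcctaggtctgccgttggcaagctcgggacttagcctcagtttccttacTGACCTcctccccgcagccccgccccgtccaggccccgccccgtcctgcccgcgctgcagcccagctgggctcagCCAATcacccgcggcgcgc
Cyp26a1: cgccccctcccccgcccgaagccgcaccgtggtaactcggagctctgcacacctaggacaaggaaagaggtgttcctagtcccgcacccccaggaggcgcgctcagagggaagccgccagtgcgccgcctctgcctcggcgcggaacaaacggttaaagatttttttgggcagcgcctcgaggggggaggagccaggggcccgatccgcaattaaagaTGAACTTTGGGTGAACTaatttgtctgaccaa
G0s2: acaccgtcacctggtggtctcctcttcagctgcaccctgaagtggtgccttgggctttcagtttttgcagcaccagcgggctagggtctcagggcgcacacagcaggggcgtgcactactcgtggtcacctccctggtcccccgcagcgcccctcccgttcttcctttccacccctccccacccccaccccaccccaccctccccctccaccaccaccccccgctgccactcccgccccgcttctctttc
Mid1ip1 (chrX:10717115-10717364, plus strand) and Cpt1a (chr19:3323051-3323300, plus strand) lay nearer the line, lower and higher with fat. Cyp26a1 (chr19:37697558-37697807, plus strand) and G0s2 (chr1:193273189-193273438, minus strand) lay nearer the step, lower and higher on ketogenic. The 5 motifs searched on both strands were the half-site AGGTCA of many nuclear receptors, its variant AGTTCA, the box CCAAT bound by NF-Y, a direct repeat of AGGTCA with a spacer of 1 base, of the kind that PPAR alpha with RXR is known to bind, and a direct repeat of AGTTCA with a spacer of 5 bases, of the kind known for retinoic acid receptors. The Cyp26a1 promoter held the repeat of AGTTCA on the other strand, 32 to 16 bases before the start. It is made of 2 matches to AGTTCA alone (found in 11.8% of promoters), and 0.0213% of 32851 promoters hold it. The motifs were a chosen set, so such a share says how common a motif is and is no test of a promoter. A repeat of AGGTCA with a spacer of 5 bases was not searched. The Cpt1a promoter held AGGTCA on the other strand 94 to 89 bases before the start, found in 14% of promoters, and CCAAT 19 to 15 bases before the start, found in 33.8%. The repeat of AGGTCA, found in 0.0335% of promoters, was in none of these 4 windows, and no motif was in those of Mid1ip1 or G0s2. GC content was 66.8%, 59.6%, 61.6% and 67.2% in the order printed, against a median of 52.4% over all promoters.

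Among the smallest trend p-values were those of genes that turn glucose into glycogen and fat. Ppp1r3b, which brings protein phosphatase 1 to glycogen, had 234, 193, 287, 289.9 and 169.6 CPM in the 5 control livers, a lowest, median and highest of 107, 126 and 229 CPM in the 6 high-fat livers, and of 98.0, 118 and 191 CPM in the 7 ketogenic livers. High-fat and ketogenic livers had similar medians, and 7 of 7 ketogenic and 6 of 6 high-fat livers lay below the control mean. The ranges of the 3 diets overlapped. The gene had a trend of -0.92 ± 0.18 (adjusted p = 0.18) and the high-fat mean 84.5% of the way to the ketogenic mean.

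Mid1ip1, an activator of acetyl-CoA carboxylase, had 22.4, 11.9, 21.7, 25.2 and 8.23 CPM in the 5 control livers, a lowest, median and highest of 5.68, 7.97 and 15.4 CPM in the 6 high-fat livers, and of 5.65, 7.03 and 11.7 CPM in the 7 ketogenic livers. Its trend was -1.21 ± 0.24 (adjusted p = 0.18). Elovl6, which lengthens palmitate, had 233, 142, 397, 614 and 60.7 CPM in the 5 control livers, a lowest, median and highest of 37.6, 50.2 and 233 CPM in the 6 high-fat livers, and of 28.6, 45.7 and 101 CPM in the 7 ketogenic livers. Control livers were the most scattered of the 3 diets, and all 13 livers on fat diets lay below the control mean (trend -2.44 ± 0.47, adjusted p = 0.18, -2.73 to -1.95 with 1 library left out). Srebf1, the gene of SREBP-1c, averaged 66.2 ± 23.2 CPM on control, 46.6 ± 11.5 on high-fat and 36.9 ± 3.47 on ketogenic (SD), a trend of -0.79 ± 0.18 (adjusted p = 0.212). Pygl, the liver glycogen phosphorylase, averaged 166, 119.6 and 85.9 CPM on control, high-fat and ketogenic (trend -0.86 ± 0.18, adjusted p = 0.212). Its high-fat mean was 54.1% of the way to the ketogenic mean, and without control 0, high-fat 2 and high-fat 3 together it lay nearer the step. Upp2, a uridine phosphorylase, averaged 62.1, 38.2 and 33.7 CPM and Enpep, the aminopeptidase A of cell surfaces, 40.8, 25.8 and 20.8 CPM on the diets in the same order, with trends of -0.88 ± 0.21 (adjusted p = 0.212) and -0.94 ± 0.22 (adjusted p = 0.212).

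Rnd2, an atypical small GTPase, and Lrrc28, a protein with leucine-rich repeats, were also lower nearer the line, with trends of -1.33 ± 0.31 (adjusted p = 0.212) and -0.85 ± 0.18 (adjusted p = 0.212). Without control 0 the trend of Rnd2 was -0.84. Lrrc28 averaged 24.7 ± 8.12 CPM on control, 14.1 ± 3.12 on high-fat and 14.2 ± 3.35 on ketogenic (SD), so the means of both fat diets differed by less than their spread, as on a plateau. With 1 library or the 3 libraries of high interferon score left out, 16 of the 20 genes named for the line kept that shape in all 19 fits. The exceptions were Abcb4, Acot2, Cpox and Pygl. The genes were chosen by that shape in all 18 libraries, and the left-out fits reuse most of them. Keeping the shape follows in part from that choice and is no independent support.

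**Figure D1:**
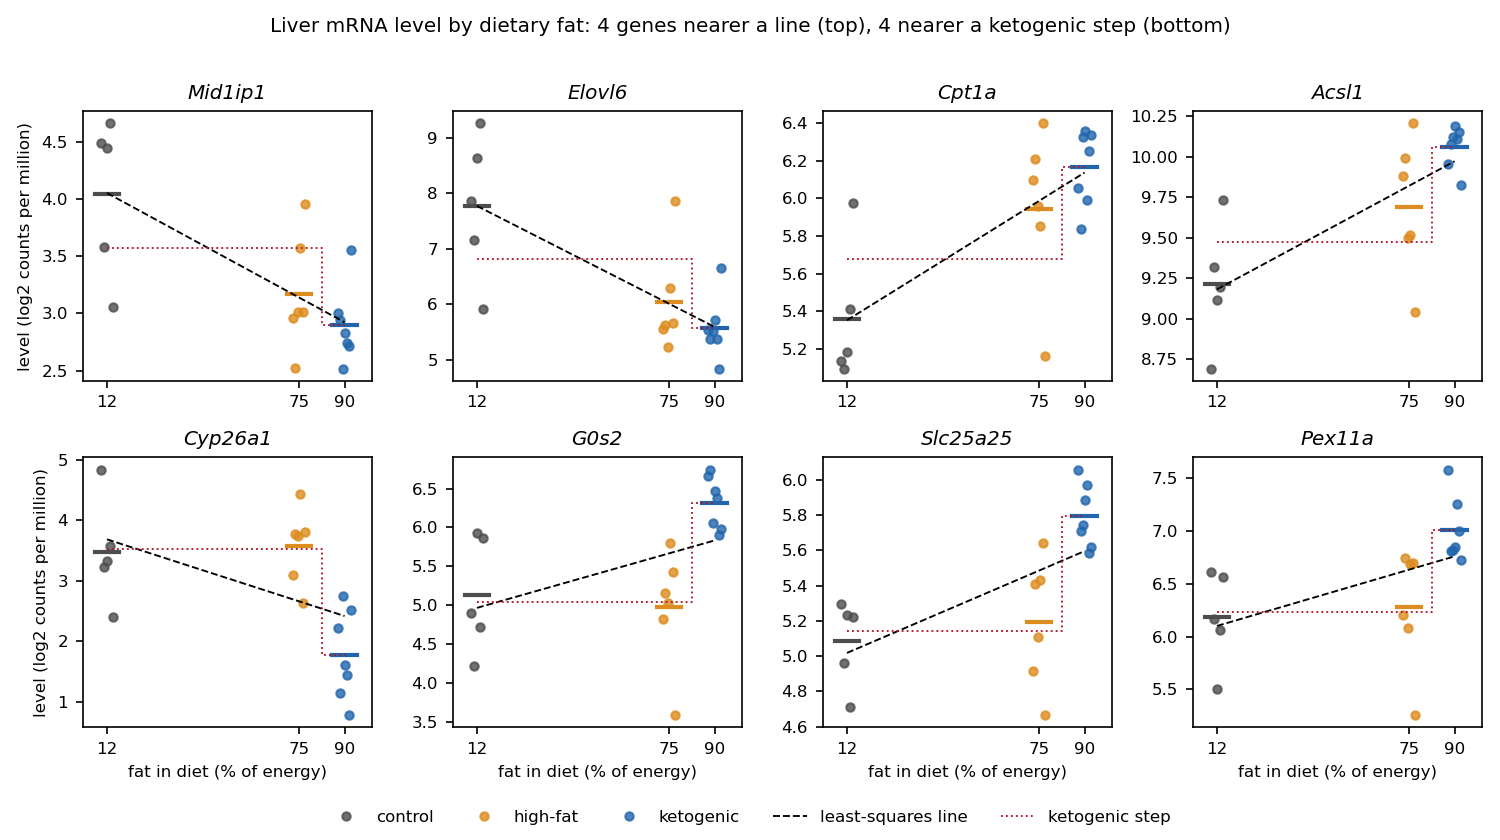
Level of 8 genes (log2 CPM, vertical) against dietary fat (percent of energy, horizontal), 1 point per liver library, with bars at the diet means, the least-squares line dashed and the step dotted. In the top row, 4 genes nearer the line, the high-fat means are closer to the ketogenic than to the control means, and in the bottom row, 4 genes nearer the step, they are close to the control means.

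Among genes higher with fat, Cpt1a, the carnitine palmitoyltransferase that admits long-chain fatty acids to mitochondria (chromosome 19, 3323348 to 3384119, plus strand in mm9), had 35.2, 34.1, 36.3, 42.6 and 62.9 CPM in the 5 control livers, a lowest, median and highest of 35.8, 65.2 and 84.3 CPM in the 6 high-fat livers, and of 57.0, 76.2 and 82.1 CPM in the 7 ketogenic livers. The high-fat median lay between the others, and high-fat livers spanned most of both ranges. The trend was 0.77 ± 0.18 (adjusted p = 0.212) and the step 0.42 ± 0.18 (adjusted p = 0.801), and the trend was 0.68 to 0.96 with any 1 library left out. Acsl1, which activates long-chain fatty acids with CoA, had 414, 639.6, 556, 588 and 851 CPM in the 5 control livers, a lowest, median and highest of 527, 838 and 1182 CPM in the 6 high-fat livers, and of 909, 1106 and 1172 CPM in the 7 ketogenic livers. No ketogenic liver overlapped the controls, and 5 of 6 high-fat livers lay above the control mean (trend 0.77 ± 0.18, adjusted p = 0.212). Acot2, a mitochondrial acyl-CoA thioesterase that can share reads with Acot1, averaged 4.80 ± 0.936 CPM on control, 9.09 ± 5.11 on high-fat and 13.7 ± 4.35 on ketogenic (SD), with a trend of 1.43 ± 0.35 (adjusted p = 0.213). Its high-fat mean was 44.7% of the way to the ketogenic mean. It stayed nearer the line in only 9 of 19 fits with libraries left out, so its shape was not settled.

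Mccc2, a subunit of the methylcrotonyl-CoA carboxylase of leucine breakdown, averaged 10.0, 14.5 and 16.9 CPM on control, high-fat and ketogenic (trend 0.73 ± 0.18, adjusted p = 0.213), and Ppm1k, the phosphatase that activates branched-chain ketoacid dehydrogenase, 47.4, 81.8 and 84.2 CPM (trend 0.86 ± 0.22, adjusted p = 0.213). Ppm1k had its high-fat mean 96.6% of the way to the ketogenic mean, so both fat diets shared 1 level. Abcb4, the canalicular phosphatidylcholine transporter, averaged 43.1, 56.4 and 72.6 CPM (trend 0.69 ± 0.17, adjusted p = 0.213), and Cpox, the coproporphyrinogen oxidase of haem synthesis, 74.9, 95.7 and 121 CPM (trend 0.64 ± 0.16, adjusted p = 0.213). In both the high-fat mean was near the middle, 50.7% and 49.0% of the way. Inhbc, an activin subunit, Clint1, a clathrin adaptor, and Arhgef3, a guanine nucleotide exchange factor, had trends of 0.62 ± 0.16 (adjusted p = 0.213), 0.45 ± 0.11 (adjusted p = 0.214) and 0.58 ± 0.15 (adjusted p = 0.22).

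Among genes nearer the step, the smallest step p was in Cyp26a1, the retinoic acid hydroxylase (chromosome 19, 37772344 to 37776018, plus strand in mm9), which had 28.5, 9.30, 9.93, 11.8 and 5.24 CPM in the 5 control livers, a lowest, median and highest of 6.12, 13.5 and 21.5 CPM in the 6 high-fat livers, and of 1.65, 2.96 and 6.65 CPM in the 7 ketogenic livers. High-fat and control livers shared a level and the 7 ketogenic livers lay below the control mean, with overlap at the low end. The step was -1.78 ± 0.34 (adjusted p = 0.287), -1.99 to -1.60 with any 1 library left out and -1.39 without control 0, high-fat 2 and high-fat 3. High-fat was 1.43 ± 0.34 off the line and -0.02 ± 0.40 from control. Fewer cells that express a gene and less of its mRNA in each cell cannot be told apart in bulk liver, here or below.

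G0s2, the inhibitor of adipose triglyceride lipase (chromosome 1, 195098356 to 195099303, minus strand in mm9), had 29.8, 18.6, 60.8, 26.3 and 58.2 CPM in the 5 control livers, a lowest, median and highest of 12.0, 34.2 and 55.8 CPM in the 6 high-fat livers, and of 59.8, 83.1 and 107 CPM in the 7 ketogenic livers. No ketogenic liver overlapped the high-fat livers, although the control range reached into the ketogenic one. The step was 1.16 ± 0.25 (adjusted p = 0.416), with 1.06 to 1.24 under left-out libraries, and DESeq2 called it (adjusted p = 0.00483). Slc25a25, a calcium-sensitive mitochondrial ATP-magnesium carrier, had 39.2, 31.1, 37.6, 26.1 and 37.2 CPM in the 5 control livers, a lowest, median and highest of 25.3, 38.4 and 49.9 CPM in the 6 high-fat livers, and of 48.0, 53.5 and 66.5 CPM in the 7 ketogenic livers. Every ketogenic liver lay above every control liver, and 4 of 6 high-fat livers lay above the control mean (step 0.63 ± 0.13, adjusted p = 0.287).

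Txnip, a thioredoxin-binding arrestin that limits glucose uptake, averaged 16.0 ± 2.42 CPM on control, 16.3 ± 2.37 on high-fat and 23.4 ± 4.65 on ketogenic (SD), with a step of 0.54 ± 0.12 (adjusted p = 0.457). Pex11a, which drives peroxisome division, averaged 75.3 ± 21.6 CPM on control, 82.2 ± 27.3 on high-fat and 131 ± 30.9 on ketogenic (SD), and Gyk, the glycerol kinase, 49.8 ± 10.4 CPM on control, 55.0 ± 12.2 on high-fat and 75.7 ± 7.64 on ketogenic (SD). In both, no ketogenic liver overlapped the controls, and the steps were 0.73 ± 0.18 (adjusted p = 0.571) and 0.52 ± 0.13 (adjusted p = 0.571). Acot1, a cytosolic thioesterase that can share reads with Acot2, had a step of 0.94 ± 0.23 (adjusted p = 0.571). Its high-fat mean was 28.1% of the way, between the shapes, and without high-fat 5 it lay nearer the line. Uros, the uroporphyrinogen synthase of haem synthesis, and Fam73b, a mitochondrial outer membrane protein, had steps of 0.65 ± 0.16 (adjusted p = 0.585) and 0.65 ± 0.14 (adjusted p = 0.416).

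Among lower genes nearer the step, Tkt, the transketolase of the pentose phosphate pathway, averaged 24.8 ± 6.33 CPM on control, 22.2 ± 3.95 on high-fat and 16.8 ± 1.53 on ketogenic (SD), and no ketogenic liver overlapped the control or the high-fat livers (step -0.48 ± 0.12, adjusted p = 0.612). Pgd, the phosphogluconate dehydrogenase, averaged 19.6, 15.2 and 10.5 CPM on control, high-fat and ketogenic, with a step of -0.70 ± 0.19 (adjusted p = 0.643). Its high-fat mean was 42.3% of the way, and it stayed nearer the step in 11 of 19 fits with libraries left out. Slc3a1, a subunit of the cystine transporter, ran against the order of fat, with 12.8 ± 3.15 CPM on control, 16.3 ± 4.86 on high-fat and 9.01 ± 1.83 on ketogenic (SD). High-fat lay 0.76 ± 0.17 above the line and the step was -0.71 ± 0.18 (adjusted p = 0.571). Cobl, an actin nucleator, averaged 12.1, 8.72 and 5.94 CPM (step -0.78 ± 0.19, adjusted p = 0.571, trend -0.91 ± 0.21, adjusted p = 0.212), and its high-fat mean departed from control by -0.47 ± 0.21. Pter, a phosphotriesterase-related protein, Pmf1, a kinetochore protein, and Med14, a Mediator subunit, had steps of -0.44 ± 0.11 (adjusted p = 0.571), -0.80 ± 0.23 (adjusted p = 0.643) and -0.31 ± 0.09 (adjusted p = 0.643). With libraries left out, 12 of the 16 genes named for the step kept that shape in all 19 fits, and Acot1, Cobl, Pgd and Pmf1 did not. These genes too were chosen by their shape in the same libraries, so keeping it is no independent support.

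**Figure D2:**
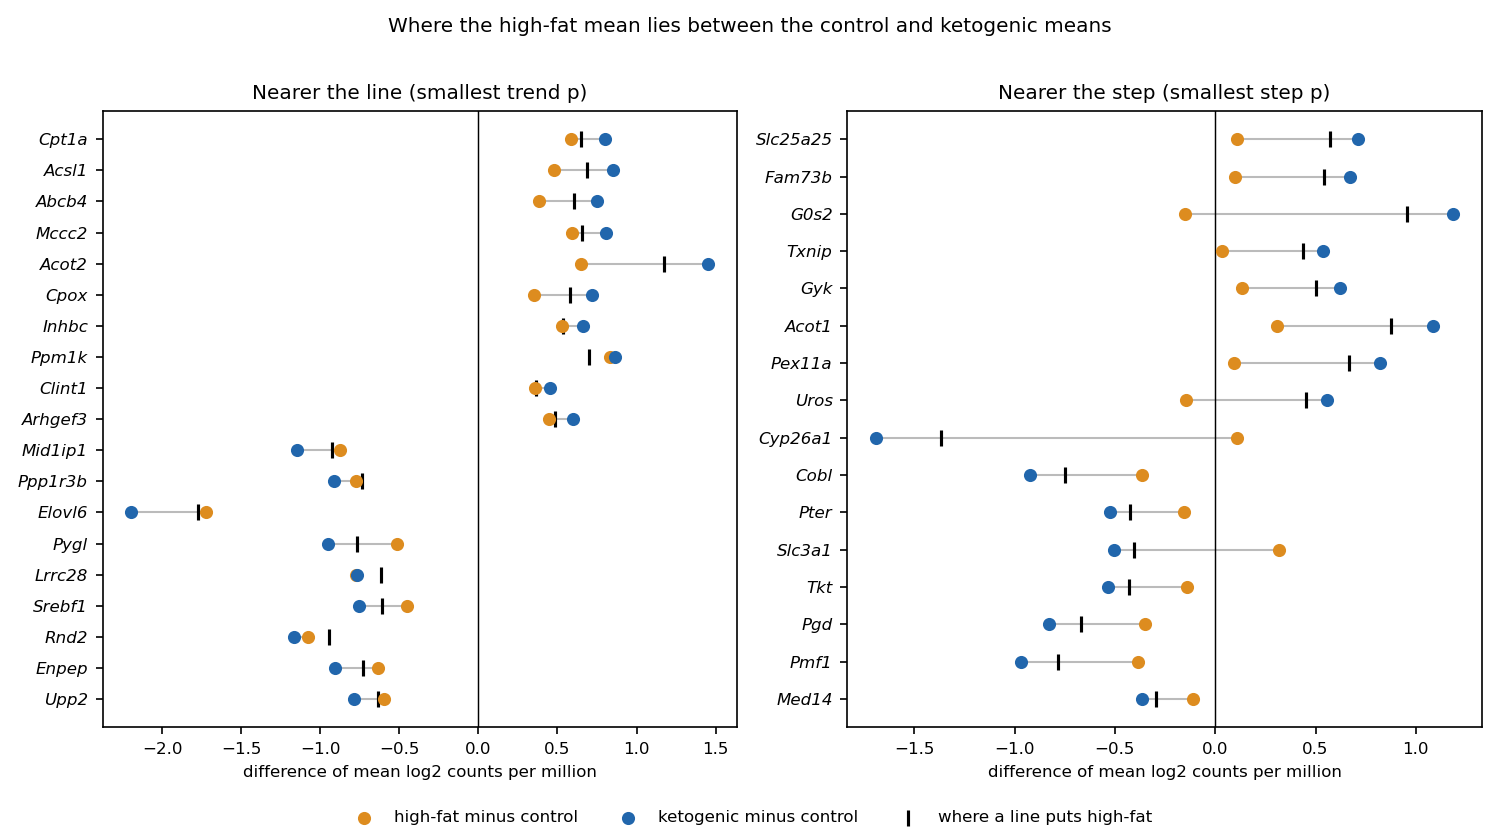
Difference of mean log2 CPM from control (horizontal) for genes named by the line and by the step rules and described here, with the high-fat and ketogenic diets as separate points for each gene and a tick where a line puts high-fat. High-fat points lie 44.7% to 101% of the way to the ketogenic mean for line genes and -63.2% to 42.3% for step genes, which follows in part from how the genes were chosen.

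A few genes had their extreme on the high-fat diet, which neither shape allows. Clec1b, a C-type lectin known from platelets and liver sinusoidal endothelium, had 4.65, 4.80, 5.71, 3.98 and 5.02 CPM in the 5 control livers, a lowest, median and highest of 6.40, 7.08 and 9.81 CPM in the 6 high-fat livers, and of 4.45, 4.82 and 7.96 CPM in the 7 ketogenic livers. Every high-fat liver lay above every control liver, and high-fat was 0.53 ± 0.14 above the line. Myh10, a non-muscle myosin heavy chain, averaged 3.78 ± 0.873 CPM on control, 6.54 ± 1.96 on high-fat and 3.91 ± 1.19 on ketogenic (SD) and was 0.75 ± 0.20 above the line. Pptc7, a mitochondrial phosphatase, and Tox, a nuclear factor known from T cells, lay off it by -0.56 ± 0.15 and -0.65 ± 0.18, as did St3gal5, the sialyltransferase that makes the ganglioside GM3, at -0.53 ± 0.16. For these 3 genes all 6 high-fat livers were on the lower side of the control mean. With 2.93% of genes under an unadjusted p of 0.05 for departure from the line, none of these is a call.

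Most genes of fatty acid synthesis had lower means with more fat, with no adjusted call. Of 21 tested members of the de novo lipogenesis list, 14 were lower and 1 higher by unadjusted trend p, and 13 lower and 1 higher by step p, where 5.82% of all genes were lower by trend p and 2.68% by step p. The median log2 difference was -0.45 for high-fat and -0.88 for ketogenic livers from control, where the median of all genes was 0.02 and 0.01. Fasn, the fatty acid synthase, had 363, 210.4, 590.4, 856 and 169.6 CPM in the 5 control livers, a lowest, median and highest of 73.9, 117 and 547 CPM in the 6 high-fat livers, and of 55.2, 67.3 and 241 CPM in the 7 ketogenic livers. High-fat livers spanned most of the range, with high-fat 5 at the level of the controls (trend -2.08 ± 0.52, adjusted p = 0.219, step -1.69 ± 0.54, adjusted p = 0.702). Scd1, the stearoyl-CoA desaturase, had 4774, 2729, 8952, 10546 and 2471 CPM in the 5 control livers, a lowest, median and highest of 301, 1745 and 7686 CPM in the 6 high-fat livers, and of 213, 378 and 3291 CPM in the 7 ketogenic livers. Its high-fat mean was 48.7% of the way in log2 (trend -2.50 ± 0.79, adjusted p = 0.332, step -2.37 ± 0.73, adjusted p = 0.66). The 1 higher member was Fads2, the delta-6 desaturase, named after its values were seen, at 212, 233 and 311 CPM (trend 0.47 ± 0.22, adjusted p = 0.465). By residuals 14 of the 21 members (66.7%, beside 59.1% of all genes) were nearer the line, against 9 without high-fat 4 and 18 without high-fat 5. Of all tested genes 56.7% and 60.4% were nearer the line in those 2 fits.

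**Figure D3:**
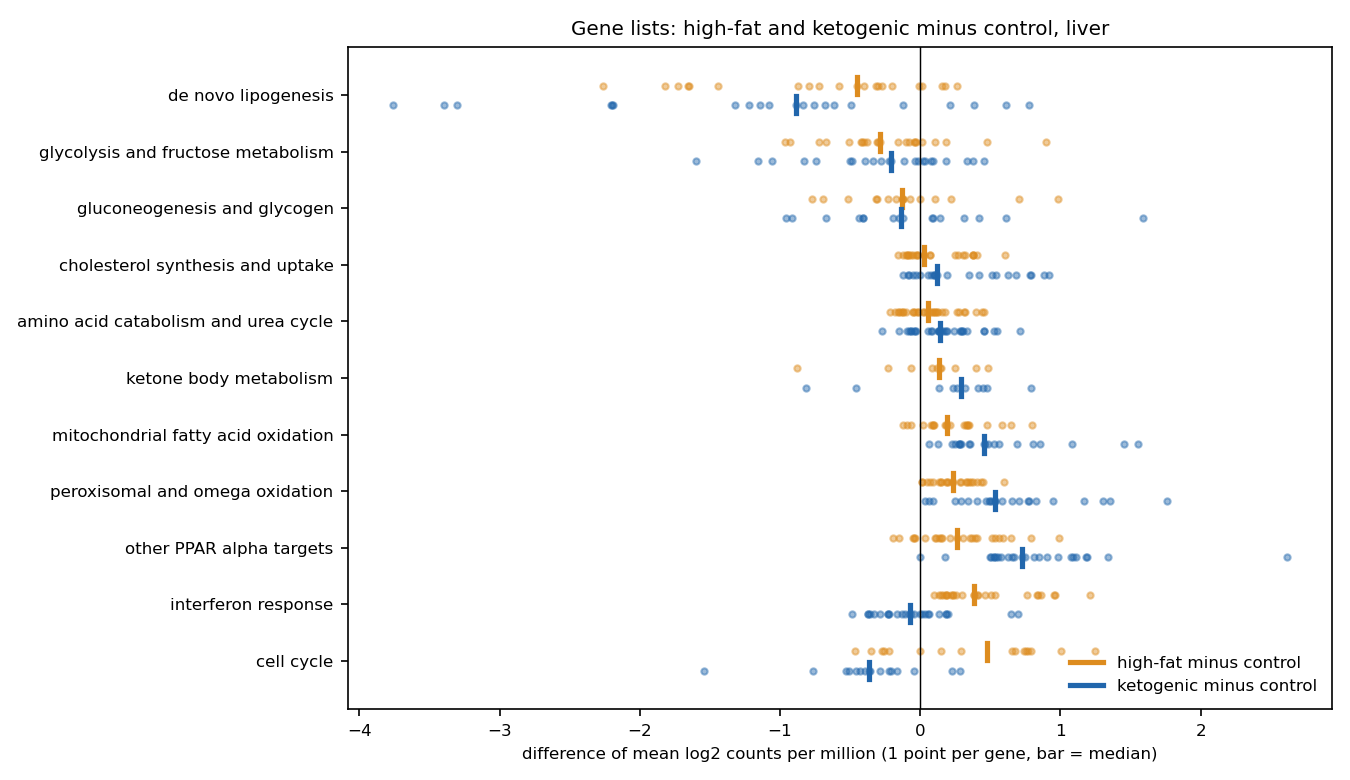
Difference of mean log2 CPM from control (horizontal) for each tested member of the gene lists (1 point per gene), with high-fat and ketogenic drawn apart and bars at the list medians. Lipogenesis medians were -0.45 and -0.88, and those of other PPAR alpha targets 0.27 and 0.72, for high-fat and ketogenic.

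Of 23 glycolysis and fructose genes 8 were lower and 1 higher by trend p, and 5 lower and 1 higher by step p, with 17 nearer the line (73.9%). Of all genes 5.82% were lower by trend p and 2.68% by step p, and 59.1% lay nearer the line. The trend was below 0 in 15 of the 23 list members and above 0 in 8. The median difference from control was -0.29 on high-fat and -0.21 on ketogenic. Pklr, the liver pyruvate kinase, averaged 83.2 ± 34.5 CPM on control, 47.5 ± 33.2 on high-fat and 27.6 ± 12.7 on ketogenic (SD; trend -1.43 ± 0.38, adjusted p = 0.246), and Dak, which phosphorylates dihydroxyacetone and glyceraldehyde, 117 ± 51.6 CPM on control, 71.9 ± 25.8 on high-fat and 54.2 ± 15.5 on ketogenic (SD; trend -1.05 ± 0.26, adjusted p = 0.212). The higher member was Ldha, a lactate dehydrogenase subunit named after its values were seen, at 358, 408 and 484 CPM (trend 0.39 ± 0.17, adjusted p = 0.441).

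Of 16 gluconeogenesis and glycogen genes, 6 were lower and 3 higher by trend p, where 5.82% of all genes were lower and 4.4% higher. Pck1, phosphoenolpyruvate carboxykinase, had 225, 103, 93.1, 113 and 369.5 CPM in the 5 control livers, a lowest, median and highest of 151, 291 and 753 CPM in the 6 high-fat livers, and of 204, 486 and 654 CPM in the 7 ketogenic livers. The trend was 1.39 ± 0.39 (adjusted p = 0.276) and the high-fat mean was 62.0% of the way. G6pc, the glucose-6-phosphatase, averaged 119 ± 35.3 CPM on control, 138 ± 41.2 on high-fat and 176 ± 30.3 on ketogenic (SD; trend 0.50 ± 0.21, adjusted p = 0.416), while its partner Slc37a4, the glucose-6-phosphate transporter, was lower, at 25.6 ± 8.49 CPM on control, 15.8 ± 5.12 on high-fat and 15.3 ± 1.70 on ketogenic (SD; trend -0.77 ± 0.20, adjusted p = 0.213). Ppargc1a, a coactivator of fasting genes, averaged 12.1, 9.86 and 9.18 CPM (trend -0.39 ± 0.16, adjusted p = 0.417). Ppp1r3c, another glycogen-targeting subunit and the third higher member, was named after its values were seen, at 80.4, 89.2 and 108 CPM.

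Genes of fatty acid oxidation mostly had higher means with more fat, with no adjusted call, and were split between the shapes. Of 21 mitochondrial members 12 were higher and 0 lower by trend p, 14 higher by step p, and 11 lay nearer the line. Of all genes 4.4% were higher by trend p and 3.15% by step p, and 59.1% lay nearer the line. The list medians were 0.19 and 0.45 on high-fat and ketogenic. Of 24 peroxisomal and omega oxidation genes 14 were higher by trend p and 14 by step p, with 0 lower, 12 nearer the line and medians of 0.23 and 0.53. Cyp4a14, a fatty acid omega-hydroxylase, had 189, 293, 127, 151 and 281 CPM in the 5 control livers, a lowest, median and highest of 34.3, 381 and 626 CPM in the 6 high-fat livers, and of 480.1, 691 and 769 CPM in the 7 ketogenic livers. No ketogenic liver overlapped the controls (trend 1.55 ± 0.42, adjusted p = 0.258, step 1.23 ± 0.34, adjusted p = 0.643). Cyp4a10 averaged 154, 207 and 367 CPM (step 1.01 ± 0.27, adjusted p = 0.64), and these near-identical Cyp4a copies can share reads.

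Other PPAR alpha targets leaned to the step: 14 of 25 were higher by trend p, 13 by step p, 0 lower by either, and 18 lay nearer the step. Of all genes 4.4% were higher by trend p and 3.15% by step p. In this list 28% lay nearer the line, and 59.1% of all genes did. The list medians were 0.27 and 0.72 on high-fat and ketogenic. The 4 tested adipocyte markers, of which Cidea and Fabp4 are in both lists, had medians of 0.69 and 1.67, and their part in these counts was not tested. Angptl4, the secreted lipoprotein lipase inhibitor, averaged 17.2 ± 7.25 CPM on control, 22.9 ± 8.21 on high-fat and 35.3 ± 5.18 on ketogenic (SD; step 0.80 ± 0.21, adjusted p = 0.64, trend 0.93 ± 0.27, adjusted p = 0.276). Plin2, the lipid droplet coat of hepatocytes, averaged 131 ± 40.8 CPM on control, 175 ± 46.8 on high-fat and 215 ± 18.8 on ketogenic (SD) and lay nearer the line (trend 0.66 ± 0.18, adjusted p = 0.246). Pdk4, a kinase that inhibits pyruvate dehydrogenase, averaged 13.8, 16.9 and 22.3 CPM, with a trend of 0.61 ± 0.34 (adjusted p = 0.554), and of 0.38 without control 1. Cidec, a droplet fusion protein, averaged 15.3, 20.8 and 31.6 CPM (step 0.79 ± 0.32, adjusted p = 0.801) and Cidea, its relative, 4.80, 4.49 and 11.5 CPM (step 1.32 ± 0.67, adjusted p = 0.873).

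The shape of these oxidation lists hung on single high-fat livers. Without high-fat 5, which had the lowest scores of its diet for PPAR alpha targets and peroxisomal oxidation (-0.92 and -0.89), 21 of 24 peroxisomal, 16 of 21 mitochondrial and 14 of 25 other PPAR alpha genes lay nearer the line. Without high-fat 4 the counts were 5, 8 and 6. Of all tested genes 60.4% lay nearer the line without high-fat 5 and 56.7% without high-fat 4. Over all alternatives tried the median trend was 0.36 to 0.61 for the peroxisomal, 0.23 to 0.47 for the mitochondrial and 0.53 to 0.76 for the other PPAR alpha genes.

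**Figure D4:**
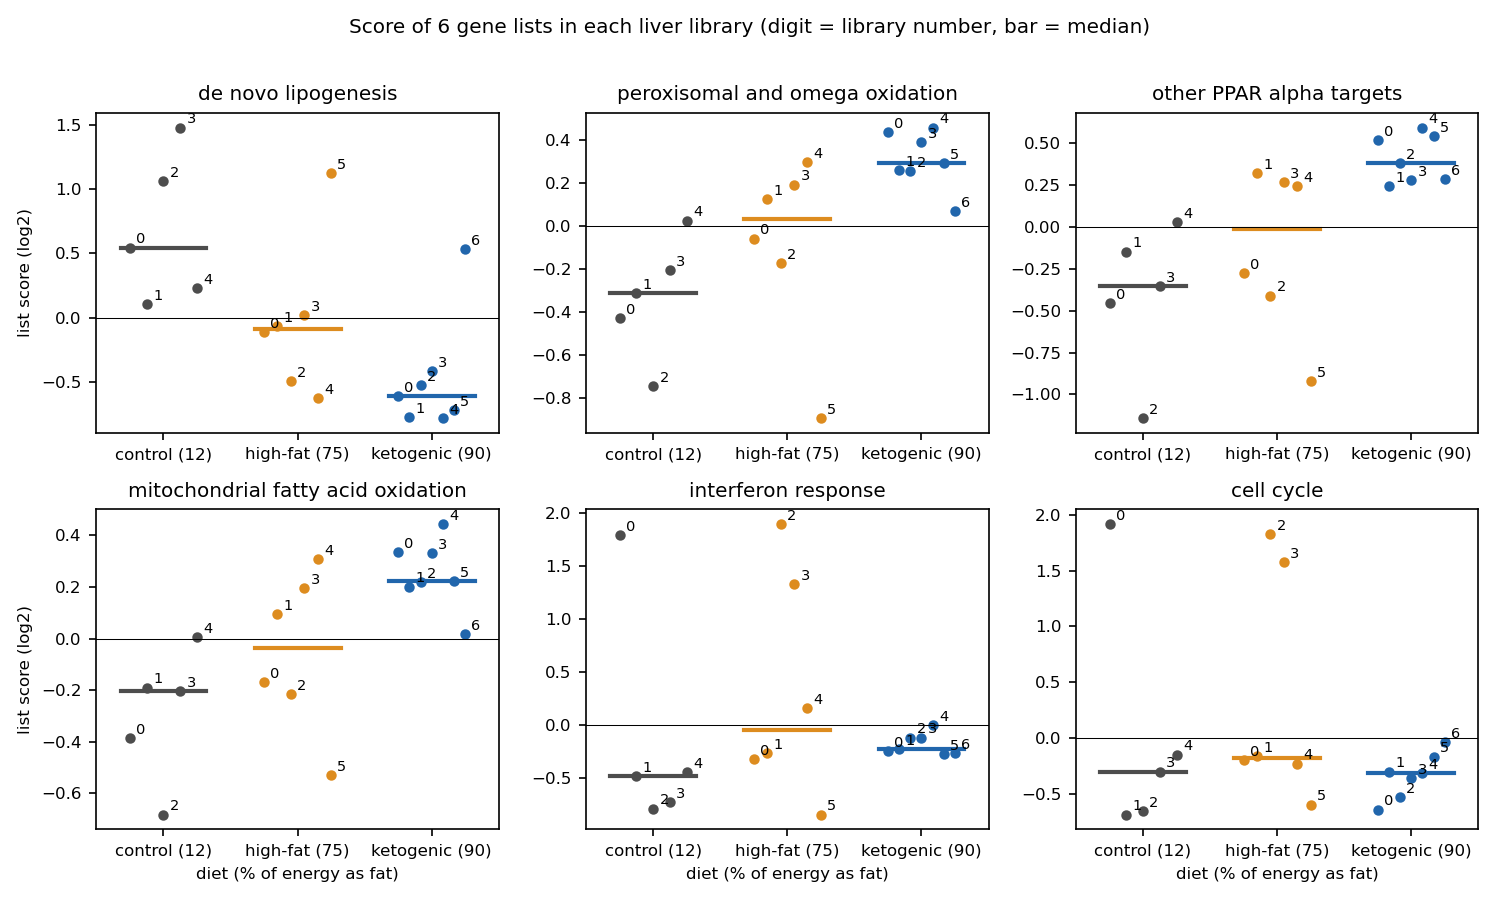
Score of 6 gene lists in each liver library (vertical, mean log2 deviation of the list's genes from their mean over the 18 libraries) by diet (horizontal), with digits for library numbers and bars for medians. High-fat 5 stands at 1.13 for lipogenesis, and control 0, high-fat 2 and high-fat 3 stand at 1.79, 1.90 and 1.33 for interferon response.

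Of 10 tested ketone body genes 4 were higher and 1 lower by trend p, and 4 higher by step p. Of all genes 4.4% were higher and 5.82% lower by trend p, and 3.15% higher by step p. Bdh1, the hydroxybutyrate dehydrogenase, averaged 30.0 ± 13.1 CPM on control, 40.5 ± 12.0 on high-fat and 48.5 ± 9.83 on ketogenic (SD; trend 0.66 ± 0.24, adjusted p = 0.359), and Slc16a1, a monocarboxylate transporter, 29.4, 31.3 and 39.3 CPM (step 0.37 ± 0.13, adjusted p = 0.77). The lower member was Aacs, which spends acetoacetate on lipid synthesis, at 22.4 ± 6.91 CPM on control, 11.9 ± 2.79 on high-fat and 12.8 ± 5.04 on ketogenic (SD; trend -0.87 ± 0.21, adjusted p = 0.212). Fgf21, a fasting hormone, averaged 3.15 ± 3.43 CPM on control, 1.89 ± 0.608 on high-fat and 3.91 ± 2.01 on ketogenic (SD), with a step of 0.66 ± 0.45 (adjusted p = 0.934). Its trend was 0.08, and 0.99 without control 0 (adjusted p = 0.719), and neither was called.

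Of 23 cholesterol genes 8 were higher by trend p and 7 by step p, with 0 lower, where 4.4% and 3.15% of all genes were higher. The list medians were only 0.03 and 0.12 on high-fat and ketogenic. Cyp51, a lanosterol demethylase, averaged 105 ± 23.7 CPM on control, 139 ± 42.3 on high-fat and 180.3 ± 40.6 on ketogenic (SD), with no overlap between ketogenic and control livers (trend 0.72 ± 0.20, adjusted p = 0.258). Fdft1, the squalene synthase, and Idi1, an isopentenyl isomerase, had trends of 0.58 ± 0.18 (adjusted p = 0.316) and 0.77 ± 0.26 (adjusted p = 0.342). Without TMM factors the median step of the list was -0.01. Cyp7a1, the rate-limiting enzyme of bile acid synthesis, was highest on ketogenic and lowest on high-fat, at 157 ± 44.7 CPM on control, 117 ± 48.0 on high-fat and 217 ± 85.4 on ketogenic (SD; step 0.68 ± 0.23, adjusted p = 0.731). Cyp8b1, the sterol 12-hydroxylase, averaged 94.4, 116 and 168 CPM (step 0.66 ± 0.26, adjusted p = 0.791, and 0.40 without control 0, high-fat 2 and high-fat 3). Of the 16 bile acid genes 2 were higher by trend p and 3 by step p, beside 4.4% and 3.15% of all genes.

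Of 32 amino acid and urea cycle genes 3 were higher by trend p and 5 by step p, with 0 lower, where 4.4% and 3.15% of all genes were higher. Oat, the ornithine aminotransferase, averaged 105 ± 38.2 CPM on control, 104 ± 37.4 on high-fat and 166 ± 39.9 on ketogenic (SD; step 0.67 ± 0.20, adjusted p = 0.659), with high-fat at the control level, and Ivd, of leucine breakdown, 38.8, 48.5 and 56.3 CPM (trend 0.50 ± 0.16, adjusted p = 0.304). The clock list had 2 of 18 members lower and 1 higher by trend p, where 5.82% of all genes were lower and 4.4% higher. Bhlhe40, a clock repressor that also answers to nutrients, averaged 89.6 ± 41.8 CPM on control, 53.0 ± 12.1 on high-fat and 49.8 ± 13.7 on ketogenic (SD; trend -0.87 ± 0.21, adjusted p = 0.212, and -0.55 without control 2). Igfbp2, an IGF carrier, averaged 55.0 ± 15.1 CPM on control, 57.5 ± 17.1 on high-fat and 87.1 ± 31.4 on ketogenic (SD; step 0.63 ± 0.20, adjusted p = 0.66), while Igfbp1 averaged 14.0, 14.2 and 15.5 CPM (trend 0.11 ± 0.49, adjusted p = 0.96). Hamp, the iron hormone hepcidin, averaged 893 ± 809 CPM on control, 306 ± 151 on high-fat and 369 ± 227 on ketogenic (SD; trend -1.40 ± 0.55, adjusted p = 0.397) and Apoc3, an inhibitor of lipoprotein clearance, 1284 ± 463 CPM on control, 832 ± 235 on high-fat and 925 ± 228 on ketogenic (SD; trend -0.54 ± 0.21, adjusted p = 0.399). Without control 0 the trend of Hamp was -0.62 (adjusted p = 0.876) and that of Apoc3 -0.31 (adjusted p = 0.818).

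Gstm3, a glutathione transferase, had 215, 6.00, 13.3, 24.8 and 9.31 CPM in the 5 control livers, a lowest, median and highest of 7.72, 15.4 and 331 CPM in the 6 high-fat livers, and of 7.52, 10.1 and 18.1 CPM in the 7 ketogenic livers. Its high values were in control 0, high-fat 2 and high-fat 3, and the ketogenic livers lay among the other libraries (step -2.96 ± 0.97, adjusted p = 0.731, and -0.22 without those 3). Gstm1 averaged 903, 1452 and 663 CPM (step -0.86 ± 0.38, adjusted p = 0.839, and -0.14 without those 3), and Gstm genes can share reads. The same 3 libraries had Mup scores of -1.76, -2.30 and -1.21. Among 13 major urinary protein genes, whose near-identical copies can share reads, 1 was higher by step p, where 3.15% of all genes were. Nuclear oxidative phosphorylation (27 genes), the unfolded protein response (18) and cytosolic heat shock (11) had 0 members with an unadjusted p under 0.05 for trend or step, in edgeR's test with 0 adjusted calls.

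Interferon and cell cycle genes were high in the same 3 libraries. Of 26 interferon genes 6 were lower and 0 higher by step p, and of 16 cell cycle genes 7 were lower, where 2.68% of all genes were lower. Irf7, an interferon regulatory factor, averaged 15.8 ± 22.4 CPM on control, 12.9 ± 9.50 on high-fat and 6.37 ± 1.46 on ketogenic (SD; step -1.16 ± 0.52, adjusted p = 0.839), and Pcna, the DNA polymerase clamp, 15.9 ± 13.6 CPM on control, 11.2 ± 3.70 on high-fat and 9.54 ± 1.52 on ketogenic (SD; trend -0.72 ± 0.29, adjusted p = 0.416). Without control 0 the counts lower by step p were 0 and 3. Without control 0, high-fat 2 and high-fat 3 there were 5 higher and 0 lower interferon genes and 1 lower cell cycle gene, and the step of Irf7 was 0.01. Without control 0 alone it was -0.67, and the trend of Pcna was 0.01.

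Among 16 integrated stress genes 3 were lower by trend p, as were 1 of 17 lipoprotein genes and 1 of 17 Nrf2 and glutathione genes, with 0 higher in each. Of 21 xenobiotic genes 1 was higher, of 20 insulin, IGF and FOXO genes 1 was higher and 2 lower, and of 21 acute phase and complement genes 1 was higher and 1 lower, all by trend p. Over all genes 4.4% were higher and 5.82% lower, so counts of 1 lie near that background.

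Hepatocyte (7 tested), macrophage (13) and cholangiocyte (6) markers had 0 members under an unadjusted p of 0.05 by trend or step in edgeR's test, as did the 1 acinar marker tested. By trend p, 2 of 10 lymphocyte markers were higher and 2 lower, 1 of 3 neutrophil, 1 of 10 endothelial and 2 of 6 erythroid markers were higher, and 1 of 11 stellate cell and fibroblast markers was lower. Of all genes 4.4% were higher and 5.82% lower by trend p. Of the 4 tested adipocyte markers 1 was higher by trend p and 1 by step p. Their summed CPM was 5.03 to 22.6 in control, 4.65 to 36.3 in high-fat and 22.7 to 52.7 in ketogenic livers. Cfd, the adipsin gene, averaged 2.55 ± 3.34 CPM on control, 8.73 ± 8.34 on high-fat and 19.4 ± 8.71 on ketogenic (SD; trend 2.80 ± 0.97, adjusted p = 0.358). The defining markers Adipoq, Plin1, Retn and Lep had 1, 5, 1 and 0 counts over all 18 libraries. The lipid droplet genes Cidec and Cidea, of which Cidea is in this list, were also highest on ketogenic by their means, and the part of these markers in those results was not tested.

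In the authors' deposited table, 37 genes had a false discovery rate under 0.05 for any difference among the diets, and 27 of them were tested here. Of these 27, 19 lay nearer the line and 8 nearer the step. That is close to the 70.6% nearer the line among the 909 genes with an unadjusted p under 0.05 for any diet difference. Of all tested genes 59.1% lay nearer the line. The authors' test and these residuals use the same counts and are not independent of each other.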

How the data were processed

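RNA of 18 liver libraries on 3 diets was measured by sequencing. Per the labels' protocols, total RNA was made into cDNA, amplified with a kit that primes from random hexamers and poly-T, and sequenced on an Illumina HiSeq. For each Ensembl gene the authors deposited counts, marked raw per the file headers. The genome build is mm9 per the submitters' processing notes, which list edgeR, DESeq 1, featureCounts, Subread and TopHat2 2.0.11 without saying what each did. False discovery rates and p-values of the authors' tests are in the deposited table too and served for comparison alone. It has 36 further per-sample columns, which were left out. Gene coordinates are the table's, with 1 added to starts counted from 0. Whether counting used strand is not given in the sources used here, so overlapping genes on opposite strands cannot be told apart.

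The counts went into edgeR 4.0.16 under R 4.3.3. Its filterByExpr step, with a minimum count of 10 by diet, left 13374 genes. Libraries were scaled by TMM factors, and robust quasi-likelihood F tests were run over all 18 libraries, with fat as a number for the trend, a ketogenic indicator for the step, and diet as a factor for the rest. Adjustment was by Benjamini-Hochberg over all of them, with 0.05 as the threshold. Log2 CPM for shapes and scores used a prior count of 2. The scripts were tested on simulated counts with known changes. DESeq2 1.42.0 and limma 3.58.1 were alternatives, as were other filters and scalings, the mitochondrial share as a covariate, and each library left out. High-fat minus control and ketogenic minus control share the control libraries. No pair of libraries was counted as 1 sample, since within a diet their chi-square per degree of freedom was never under 29.3. Precision is limited by 5 to 7 libraries per diet and by 7.17 to 14.6 M counts that are not mitochondrial.

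Genes named are, where mean log2 CPM reached 2 and the symbol was a proper one, the 10 higher and 10 lower by trend p nearer the line, the 8 and 8 by step p nearer the step, the 4 and 4 by departure of high-fat from the line, up to 3 members of each of 33 gene lists, and 20 fixed genes. Members and lists were chosen with earlier results of these data known. Promoters come from RefSeq tables of GRCm38.p6, another build than that of the counts, and were matched by symbol. Some genes that the rule takes are not reported here.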

Additional observations from a re-analysis of the deposited data

Results flagged for a closer look

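In groups of 5 to 7 livers, 28 values of 321 groups tested lay far from the rest of their diet by a gap test that chance alone meets in about 1 of 20 groups. Of these, 9 were in high-fat 5, 6 in control 0 and 5 in ketogenic 6. All gene values below are log2 CPM, and no cause was tested.

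High-fat 5 had the lowest high-fat level of Acot1 (2.59, others 4.04 to 4.39), Angptl4 (3.07), Cyp4a14 (5.10, others 8.07 to 9.29), Inhbc (4.86) and Por (4.95). It had the highest high-fat level of Enpep (5.49), Fasn (9.10, others 6.21 to 6.97) and Ppp1r3b (7.84), and the highest lipogenesis score (1.13). Ketogenic 6 differed the same way, with the lowest ketogenic Cyp4a10 (7.84) and Pck1 (7.67) and the highest Fasn (7.92), Scd1 (11.7, others 7.73 to 9.05) and lipogenesis score (0.53).

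Control 0 had the highest control level of Cobl (4.51), Ifih1 (5.84, others 3.89 to 4.05), Pcna (5.33), Tk1 (4.10), the cell cycle score (1.92) and the interferon score (1.79). Control 4 had the highest control Plin2 (7.67) and Ppm1k (6.37), and control 2 the lowest Igfbp1 (0.48). Hamp was lowest in high-fat 0 (4.19, other high-fat livers 8.14 to 8.70). Atf4 was lowest in ketogenic 2 (4.87), Oasl1 lowest and Clec1b highest in ketogenic 5 (1.25 and 3.01), and St3gal5 highest in ketogenic 0 (6.61).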

How the results depend on the processing

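The 97 named results gave 3100 values under 33 settings. No named result was called in the reported fit, so staying on the same side of the threshold means only staying uncalled. Of the values, 3012 stayed so in the same direction, 75 passed the threshold and 13 changed sign. The last were Fgf21 fat trend (0.08 in the reported fit, -0.0569 without TMM factors, -0.195 to 0.995 with 1 library left out), Igfbp1 trend (-0.11 with limma quality weights, -0.196 to 0.378 with 1 library left out), Irf7 and Oasl1 step (0.0124 and 0.0131 without control 0, high-fat 2 and high-fat 3), and Pcna trend (-0.895 to 0.0068 with 1 library left out, the highest without control 0). DESeq2 called 9 higher and 19 lower genes for the trend, 4 and 3 for the step, 1 higher for high-fat against control and 29 overall. Without 1 library the edgeR calls were 0 to 21 higher and 0 to 27 lower for the trend, 0 to 1 lower for high-fat against control and 0 to 5 overall. Whether same replicate numbers pair the libraries was not settled. Of 16 same-number pairs of deviations 7 correlated above 0.1 (-0.21 to 0.29), and pairs of unlike numbers ran from -0.43 to 0.40. Of 11 libraries 4 correlated best with their own number, and the reported fits use no pairing. A replicate block gave 8 higher and 14 lower trend calls, 21 overall and 62.3% nearer the line. Among genes with an unadjusted p under 0.05 for any diet difference, the share nearer the line was 53.7% without TMM factors and 62.6% with no filter. It was 56.8% with the mitochondrial share as a covariate, 76.5% with diets at equal steps, 53.6% without the 3 libraries of high interferon score and 57.0% to 80.7% without 1 library. Among all tested genes it was 47.5%, 54.8%, 51.9%, 59%, 49.9% and 50.2% to 63.3% in the same order. Causes of these shifts were not tested. Low-count genes and 5 to 7 libraries per diet limit what can pass, and 75% and 90% fat are close, so a line and a plateau are hard to separate.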
